A study of Bos taurus with 16 samples.

Results

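The secretory translocon and ER export machinery was followed through 42 genes whose products bring new secretory proteins into the endoplasmic reticulum (ER), trim and glycosylate them there, and pack them into vesicles bound for the Golgi. The genes were taken by symbol from the array annotation, and 41 of the 42 had a probe set that names that gene alone, out of 18435 genes measured in this way. Each of the 41 had a single probe set, so none had to be chosen among several. The remaining gene, SRPRB, the beta subunit of the receptor of the signal recognition particle, was not analysed here.

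Mammary gland biopsies came from 16 female heifers of the Parda de Montaña breed when their first lactation ended, and each heifer gave 1 array. Until 6 months of age all suckled their dams in sessions of 30 min, and 8 of them also had a starter concentrate (CON), while the other 8 had dam's milk alone (NOCON). From 6 to 15 months the heifers of both groups ate alfalfa hay with concentrate. The ration was 67% forage to 33% concentrate or 87% to 13%. The labels do not tie a ration to an array, so its split within each group is not known. Its part in a difference between CON and NOCON cannot be told apart. Expression is given as the authors' log2 values, on which a difference of 1 is a doubling, and arrays are named by group and replicate number.

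A protein destined for milk carries a signal peptide that is caught by the signal recognition particle (SRP) as it leaves the ribosome. The ribosome then docks on the Sec61 channel, through which the chain enters the ER, helped by the TRAP complex, while signal peptidase removes the signal and the oligosaccharyltransferase (OST) adds sugar chains. Folded cargo leaves in vesicles coated with COPII, and receptors of the KDEL and p24 (TMED) families return or sort proteins between ER and Golgi. In lactating mammary epithelium this route carries caseins and whey proteins, and it also serves every other secreting cell of the gland.

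The tissue label held up against milk protein genes, since the 6 tested (CSN1S1, CSN1S2, CSN2, CSN3, LALBA and PAEP) had mean levels between 11.84 and 12.33, close to the highest value on any array (12.66). Array medians ran from 4.25 to 4.57. In 5 arrays the median correlation with the other arrays was lower than elsewhere, namely CON 7 (0.866), NOCON 1 (0.953), CON 2 (0.964), CON 6 (0.971) and NOCON 5 (0.974), against 0.986 to 0.989 in the other 11. CON 7 also had the narrowest spread of values (interquartile range 1.49). Results that rest on these arrays are given with and without them.

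CON 7 stood out for the members too. Relative to each gene's mean over all arrays, the mean of the 41 members was -1.08 in CON 7, between -0.15 and 0.24 in the other CON arrays, and between -0.36 and 0.31 in NOCON, where NOCON 1 was the lowest. For 38 of the 41 members CON 7 was the lowest of all 16 arrays, which was true of 21.1% of all probe sets and of 73.1% of the 4142 genes with a mean level of at least 6.

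**Figure D1:**
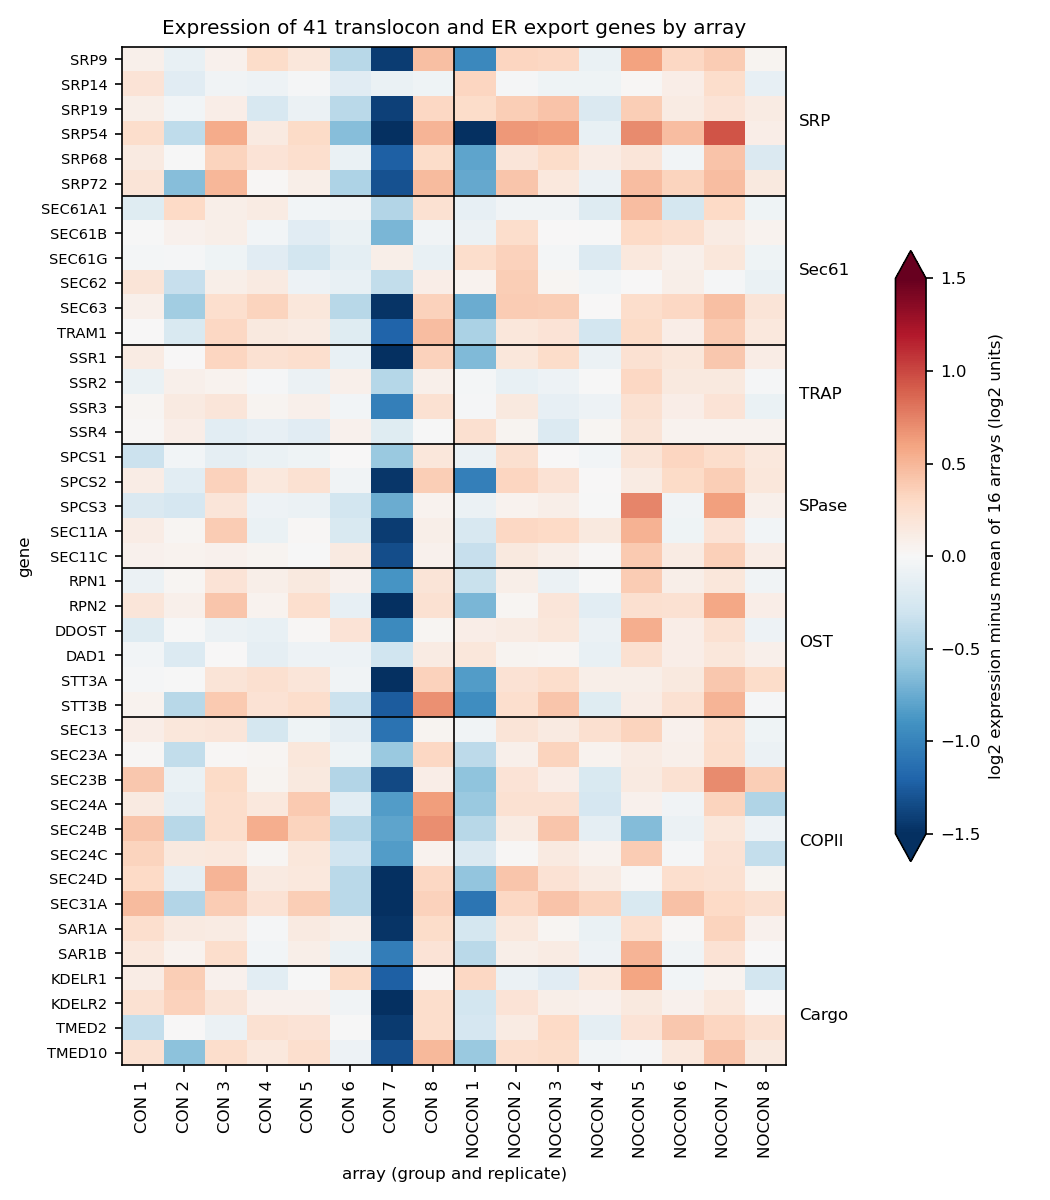
Log2 expression of each of the 41 genes (rows, by class) in each of the 16 arrays (columns), as the difference from that gene's mean over all arrays (blue lower, red higher, colours capped at 1.5 either way). The CON 7 column is blue in nearly every row, NOCON 1 is the next lowest, and SRP14, SEC61G and SSR4 stay near 0 in CON 7.

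The question put to the comparison of CON with NOCON is whether feeding before weaning is still visible in this machinery when the first lactation ends. None of the 41 members passed an adjusted p of 0.05 with limma over all 26773 probe sets, of which 0.0598% passed, and the exact permutation test passed none either. At an unadjusted limma p under 0.05 stood 6 members, all with lower means in CON (14.6% of the members, against 5.10% of all probe sets and 9.51% of the genes with a mean level of at least 6). With a higher mean in CON there were 0 such members, against 3.57% of all probe sets. With the exact test 7 members (17.1%) had an unadjusted p under 0.05, against 10.4% of all probe sets. The CON and NOCON arrays overlapped for every member, as for all but 0.176% of probe sets.

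Lower means in CON were found for 38 of 41 members, with a median log2 difference of -0.15. Over all probe sets 48.1% had a lower mean in CON, but over genes with a mean level of at least 6 the share was 80.0% and the median difference -0.13. Without CON 7 the count of members with a lower mean was 21 of 41 and the median -0.04, and without the 5 arrays of low correlation it was 20 of 41 with a median of 0.02. In those fits 49.9% and 52.3% of all probe sets had a lower mean in CON, and among genes with a mean level of at least 6 the shares were 52.5% and 46.7%. Biopsy RNA comes from all cells of the tissue, so fewer cells of a type and less RNA per cell cannot be told apart.

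**Figure D2:**
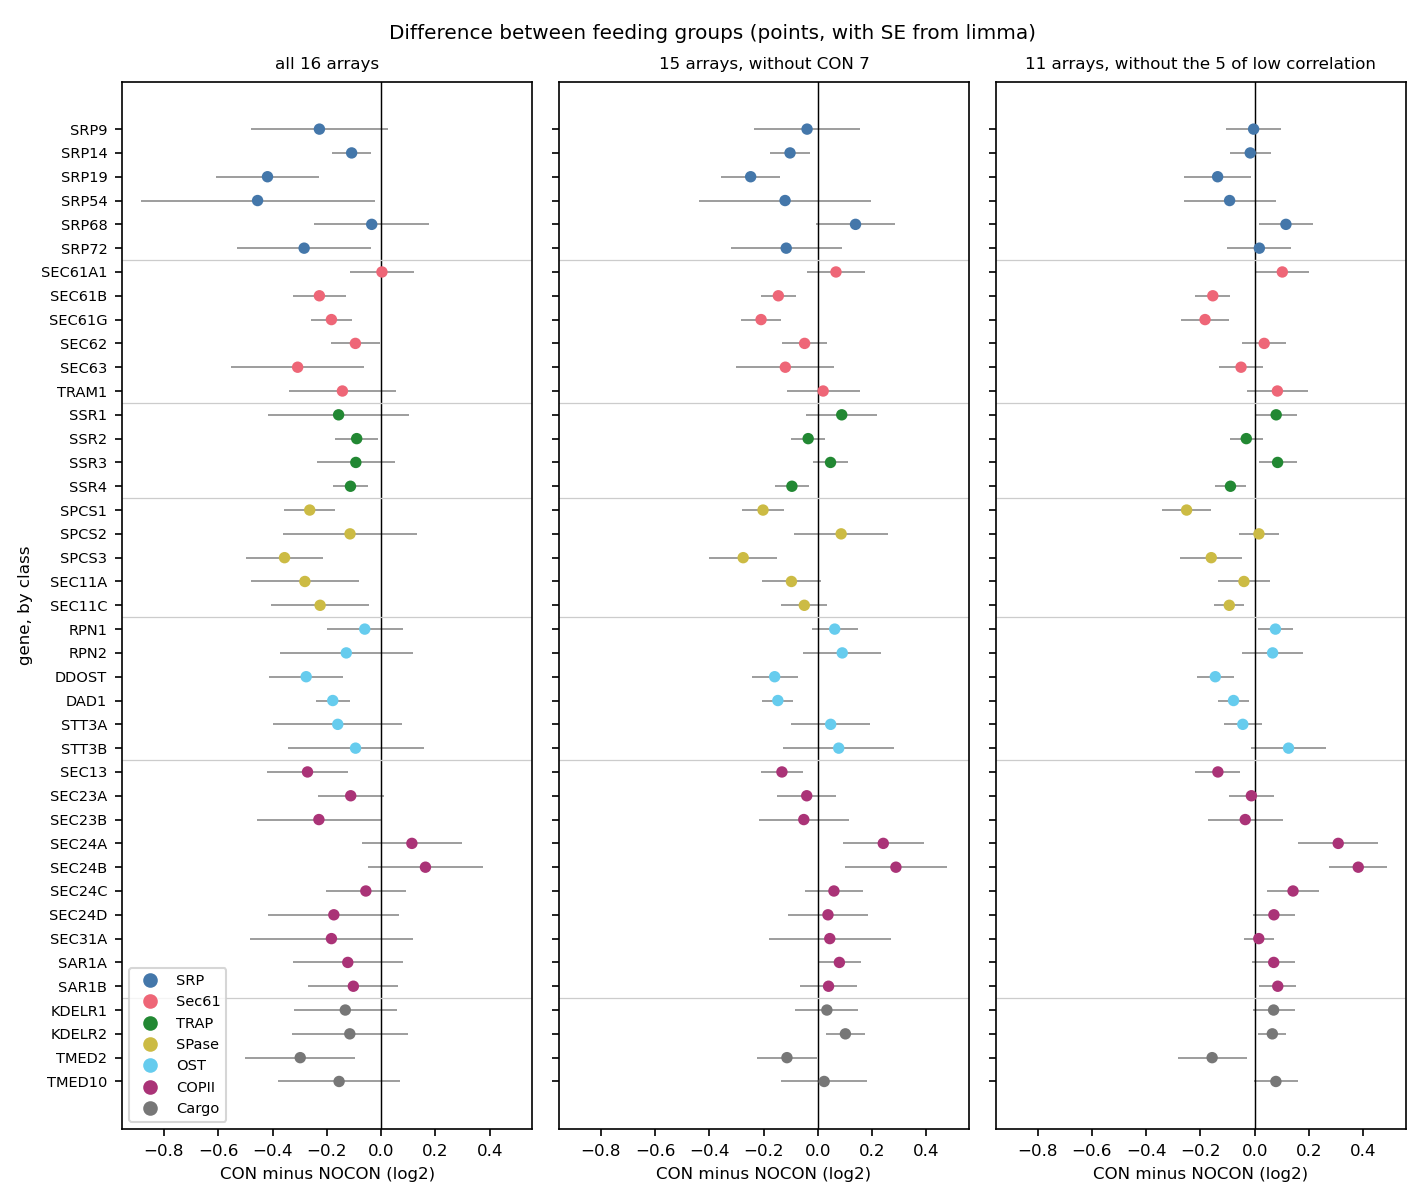
Log2 difference CON minus NOCON of each gene (points, coloured by class) with the SE from limma (bars), from all 16 arrays, without CON 7, and without the 5 arrays of low correlation. Most points lie left of 0 with all arrays and scatter around 0 in the other panels. Several stay on the left in every panel, among them SRP19, SEC61B, SEC61G, SPCS1, SPCS3, DDOST, DAD1, SEC13 and TMED2. SEC24A and SEC24B lie farthest to the right in each panel.

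SRP recognises signal peptides and pauses translation until the ribosome has docked. All 6 measured members had lower means in CON (log2 differences from -0.46 to -0.03), and 5 of the 6 did so without CON 7. SRP54, the subunit that binds the signal peptide, ranged in CON from 4.36 over a median of 7.13 to 7.48, and in NOCON from 5.36 over 7.47 to 7.86. The low ends are single arrays, CON 7 and NOCON 1, and the remaining arrays of both groups overlap widely. Its difference was -0.46 (SE 0.43, adjusted p = 0.728 with limma), or -0.12 without CON 7.

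SRP19, which helps to assemble the particle, ranged in CON from 6.96 over 8.30 to 8.68 and in NOCON from 8.14 over 8.60 to 8.79. Its difference was -0.42 (SE 0.19, unadjusted p = 0.0425, adjusted p = 0.570 with limma), with -0.25 without CON 7 and -0.14 without the 5 arrays of low correlation. SRP14, which with SRP9 forms the part that slows elongation, was measured more evenly. It lay between 9.23 and 9.61 in CON and between 9.28 and 9.72 in NOCON, and its difference was -0.11 (SE 0.07, adjusted p = 0.635). In CON 7 SRP14 differed from the mean of the other 15 arrays by -0.10, SRP9 by -1.52, SRP68 by -1.31, SRP72 by -1.40 and SRP54 by -2.74.

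Sec61 forms the channel from an alpha, a beta and a gamma subunit. SEC61A1, the pore-forming alpha subunit, had nearly equal means (log2 difference 0.00, SE 0.12), with a sign that changed when single arrays were left out. Both small subunits were lower on average in CON. SEC61G, the gamma subunit, ranged in CON from 10.57 over 10.75 to 10.94 and in NOCON from 10.64 over 10.96 to 11.19. The highest CON array was CON 7 and still lay below the NOCON median. The difference of SEC61G was -0.18 (SE 0.08, unadjusted p = 0.0292, adjusted p = 0.548 with limma), and it was -0.21 without CON 7 and -0.18 without the 5 arrays of low correlation.

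SEC61B, the beta subunit, ranged in CON from 8.97 over 9.61 to 9.74 and in NOCON from 9.57 over 9.75 to 9.95. All 8 CON arrays lay below the NOCON median. Its difference was -0.23 (SE 0.10, unadjusted p = 0.0339, adjusted p = 0.554 with limma), or -0.15 both without CON 7 and without the 5 arrays of low correlation. Among the accessory proteins, SEC63, which recruits the ER chaperone BiP to the channel, ranged from 6.81 over 8.40 to 8.62 in CON and from 7.53 over 8.56 to 8.72 in NOCON. Its difference was -0.31 (SE 0.24, adjusted p = 0.680) and -0.12 without CON 7. SEC62, a partner of SEC63, and TRAM1, a membrane protein beside the channel, differed by -0.09 and -0.14. Without CON 7 they were at -0.05 and 0.02, and without the 5 arrays of low correlation at 0.03 and 0.08. Of the 6 genes of this class 5 had lower means in CON, and 4 did so without CON 7.

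The TRAP complex sits beside the channel and helps some chains to enter. Its 4 subunits had differences between -0.16 and -0.09, and 2 of the 4 kept a lower mean without CON 7. SSR4 ranged in CON from 10.63 over 10.74 to 10.90 and in NOCON from 10.60 over 10.85 to 11.04, a difference of -0.11 (SE 0.06, adjusted p = 0.606 with limma). SSR1 ranged in CON from 7.25 over 9.21 to 9.38 and in NOCON from 8.37 over 9.20 to 9.44, so that the medians were nearly the same. Its difference of -0.16 (SE 0.26, adjusted p = 0.844) was 0.09 without CON 7.

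Signal peptidase cuts the signal peptide from the growing chain. All 5 subunits had lower means in CON, and 4 did so without CON 7. SPCS1, a small accessory subunit, ranged in CON from 9.08 over 9.55 to 9.80 and in NOCON from 9.55 over 9.81 to 9.96. All 8 CON arrays lay below the NOCON median. Its difference was -0.26 (SE 0.09, unadjusted p = 0.0123, adjusted p = 0.484 with limma, exact permutation p = 0.011, two-sided, unadjusted). It was -0.20 without CON 7 and -0.25 without the 5 arrays of low correlation.

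SPCS3, a larger accessory subunit, ranged in CON from 6.07 over 6.66 to 6.995 and in NOCON from 6.73 over 6.88 to 7.55. The difference was -0.36 (SE 0.14, unadjusted p = 0.0219, adjusted p = 0.536 with limma), -0.28 without CON 7 and -0.16 without the 5 arrays of low correlation. SPCS2 ranged in CON from 7.99 over 9.58 to 9.81 and in NOCON from 8.42 over 9.64 to 9.82, with CON 7 and NOCON 1 as the low ends. It differed by -0.11 (SE 0.25, adjusted p = 0.884), or by 0.09 without CON 7. The alternative catalytic subunits SEC11A and SEC11C differed by -0.28 and -0.22, and by -0.10 and -0.05 without CON 7.

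OST transfers a preformed sugar tree to asparagine residues. All 6 subunits had lower means in CON, and 2 of the 6 did so without CON 7, namely DDOST and DAD1. Without the 5 arrays of low correlation 3 of the 6 did so. DAD1, a small subunit, ranged in CON from 9.84 over 10.07 to 10.26 and in NOCON from 10.03 over 10.23 to 10.38. Its difference was -0.18 (SE 0.06, unadjusted p = 0.0120, adjusted p = 0.484 with limma, exact permutation p = 0.00995, two-sided, unadjusted), -0.15 without CON 7 and -0.08 without the 5 arrays of low correlation. DDOST differed by -0.28, RPN1 by -0.06 and RPN2 by -0.13. Without CON 7 these differences were -0.16, 0.06 and 0.09.

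The catalytic subunits of OST, STT3A, which works alongside the channel, and STT3B, which also acts on sites that STT3A has missed, differed by -0.16 and -0.09. Without CON 7 STT3A was at 0.05, and without the 5 arrays of low correlation at -0.04. STT3B ranged in CON from 6.74 over 8.11 to 8.67 and in NOCON from 7.05 over 8.15 to 8.49. The highest array of all was thus a CON array, and the difference (SE 0.25, adjusted p = 0.909) was 0.08 without CON 7.

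COPII vesicles are built by the GTPase SAR1, the inner coat of SEC23 and SEC24, which selects cargo, and the outer coat of SEC13 and SEC31. Of the 10 members, 8 had lower means in CON, and 3 did so without CON 7. SAR1A ranged in CON from 7.31 over 8.91 to 9.05 and in NOCON from 8.52 over 8.83 to 9.11, so the CON median was the higher one. Its difference of -0.12 (SE 0.20, adjusted p = 0.844 with limma) was 0.08 without CON 7. SEC13 ranged in CON from 6.87 over 7.96 to 8.16 and in NOCON from 7.91 over 8.14 to 8.30, a difference of -0.27 (SE 0.15, adjusted p = 0.598), which was -0.13 without CON 7.

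SEC31A, the partner of SEC13 in the outer coat, ranged in CON from 6.10 over 8.06 to 8.26 and in NOCON from 6.69 over 8.09 to 8.22. The difference was -0.18 (SE 0.30, adjusted p = 0.841) and 0.04 without CON 7. SEC24A and SEC24B, closely related cargo adaptors, were the COPII members with higher means in CON, and they are named after their values were seen. SEC24A differed by 0.11 (SE 0.18, adjusted p = 0.841 with limma), by 0.24 without CON 7 and by 0.31 without the 5 arrays of low correlation. SEC24B ranged in CON from 4.27 over 5.36 to 5.75 and in NOCON from 4.41 over 4.98 to 5.47.

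The difference of SEC24B was 0.16 (SE 0.21, adjusted p = 0.799), and 0.29 without CON 7. Without the 5 arrays of low correlation it was 0.38 (unadjusted p = 0.0042, adjusted p = 0.324 with limma, 5 CON against 6 NOCON arrays), where 8.62% of all probe sets had an unadjusted p under 0.05. SEC24B was fairly dim, with a mean level of 5.06 beside array medians of 4.25 to 4.57. The second adaptor pair, SEC24C and SEC24D, differed by -0.06 and -0.17, and by 0.06 and 0.04 without CON 7. SEC23A, of the inner coat, was dim, with group means of 4.50 in CON and 4.61 in NOCON.

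Receptors that shuttle between ER and Golgi completed the list. KDELR1 and KDELR2, which return escaped ER chaperones, differed by -0.13 and -0.12, and by 0.03 and 0.10 without CON 7. TMED2, a p24 protein of COPI and COPII vesicles, ranged in CON from 8.98 over 10.41 to 10.68 and in NOCON from 10.16 over 10.63 to 10.82. Its difference was -0.30 (SE 0.20, adjusted p = 0.637 with limma), or -0.11 without CON 7. TMED10, its partner, ranged in CON from 7.32 over 8.83 to 9.13 and in NOCON from 8.08 over 8.79 to 9.06, a difference of -0.15 (SE 0.22, adjusted p = 0.817) that was 0.02 without CON 7.

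The 6 members with an unadjusted p under 0.05 (SRP19, SEC61B, SEC61G, SPCS1, SPCS3 and DAD1) were the same 6 with and without CON 7. Without CON 7, 5.91% of all probe sets had such a p with a lower mean in CON. So did 341 of the 4142 genes with a mean level of at least 6. SPCS1, SPCS3 and DAD1 kept it in each of the 16 fits that left out 1 array. The share of all probe sets that do so was not computed, so nothing particular to these members is read from it. Without the 5 arrays of low correlation, SEC61B and SPCS1 were the 2 of the 6 that still had one. In that fit 4.88% of all probe sets had one with a lower mean in CON, as did 348 of the 4142 genes with a mean level of at least 6. None of them passed after adjustment in any of these fits, where 0.0747% of all probe sets passed without CON 7 and 0.0859% without the 5 arrays.

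Subunits of one complex fell by unlike amounts in CON 7, and so did genes with a mean level of at least 6 at large. Against the mean of the other 15 arrays, 26 of the 41 members (63.4%) were more than 1 lower there on the log2 scale, as were 48.2% of the genes with a mean level of at least 6. The median difference was -1.30 over the members, -0.97 over those genes and 0.04 over all genes. Within 0.5 of the other arrays stayed 7 members: SRP14, SEC61A1, SEC61G, SEC62, SSR2, SSR4 and DAD1 (17.1%, against 21.9% of the genes with a mean level of at least 6).

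SEC61G, at 10.94 in CON 7, was 0.10 above the mean of the other arrays. SEC61B differed from that mean by -0.73 and SEC61A1 by -0.47. In TRAP the difference was -1.91 for SSR1, -1.09 for SSR3, -0.45 for SSR2 and -0.19 for SSR4. In OST it was -1.70 for RPN2, -1.63 for STT3A and -0.32 for DAD1.

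**Figure D3:**
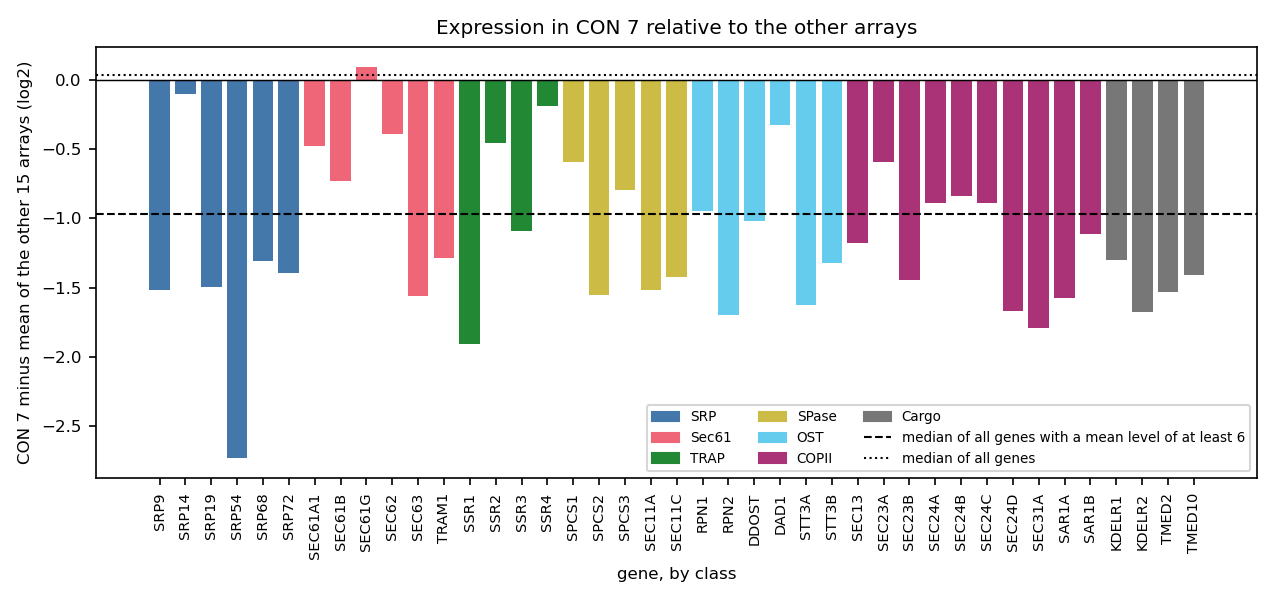
Log2 expression in CON 7 minus the mean of the other 15 arrays for each gene (bars, coloured by class), with the median over all genes (dotted line) and over genes with a mean level of at least 6 (dashed line, at -0.97). SRP54 has the longest bar at -2.74, and SEC61G is the one bar above 0.

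**Figure D4:**
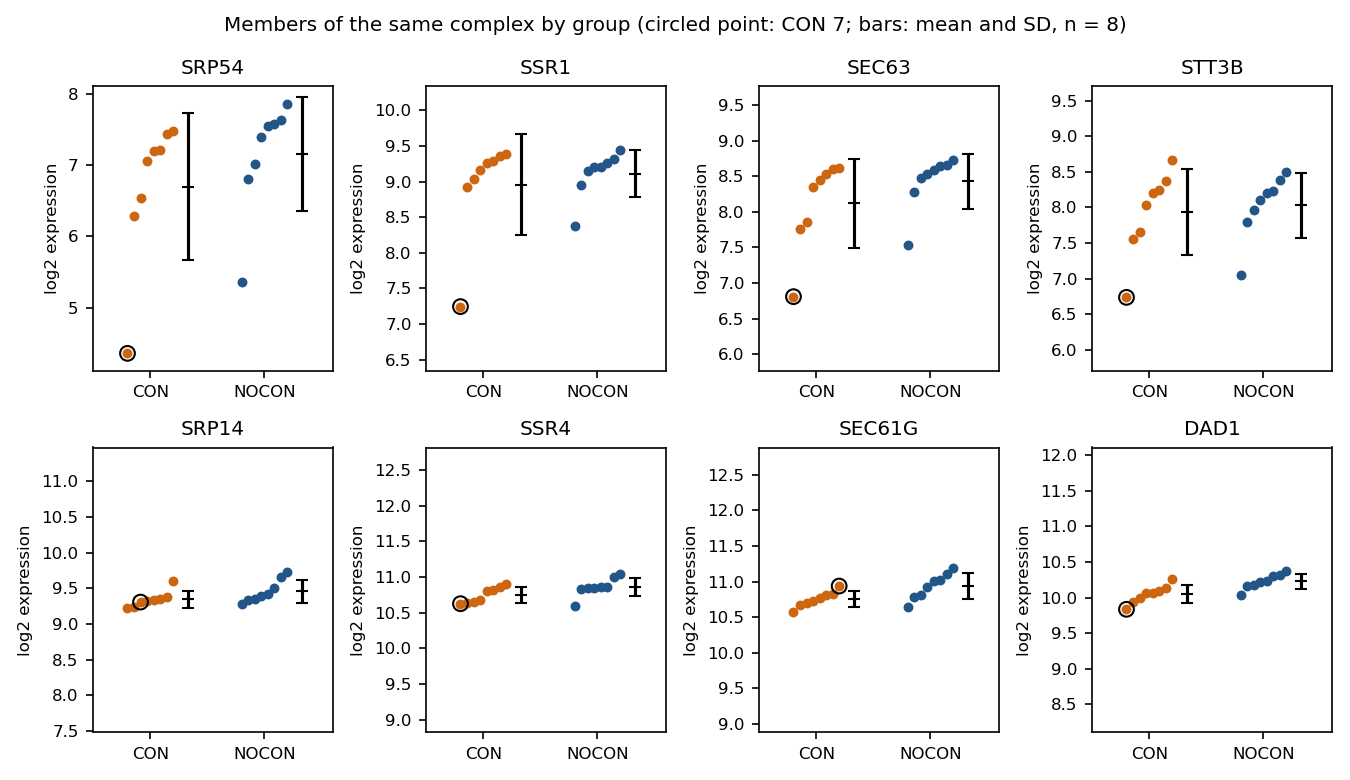
Log2 expression in the 8 CON and 8 NOCON arrays (points, sorted within a group) for pairs from SRP, TRAP, Sec61 and OST, with mean and SD beside them. Every panel has the same span and the circled point is CON 7, which lies far below the rest for SRP54 and SSR1 and among them for SRP14 and SEC61G.

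Other genes moved in CON 7 as well. The mean of 13 luminal epithelium markers was -0.64 there, against -0.12 to 0.07 in the other CON arrays and -0.11 to 0.23 in NOCON, and the mean of 6 endothelial markers was -1.32 against -0.41 to 0.62 and -0.92 to 0.51. For 7 markers of myoepithelium and smooth muscle it was -0.82 against -0.11 to 0.73 and -0.57 to 0.38. The mean of the 6 milk proteins was 0.12 in CON 7, against -0.07 to 0.09 and -0.11 to 0.03. Their levels lie near the top of the scale, between 11.84 and 12.33, and varied little over the arrays (median SD 0.095). For 9 B and plasma cell markers the mean was 0.29 against -0.15 to 0.09 and -0.17 to 0.15, and 8 of the 9 had mean levels below 5. The 6 skeletal muscle markers were at 0.19 in CON 7 and the 6 T and NK cell markers at 0.12. Of these, 6 and 5 had mean levels below 5. The 7 adipocyte markers were at -0.02, the 7 of fibroblasts and matrix at -0.20 and the 5 of macrophages and dendritic cells at -0.14. All lists but that of B and plasma cells in these last sentences lay within the range of the NOCON arrays. The array median of CON 7, at 4.57, was the highest. The part of these cell types, of RNA quality or of the narrow spread of that array in the members' values was not tested.

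Members varied together over the arrays. The 820 pairs of members had a median Pearson's r of 0.734 over 16 arrays, and 56.0% of them exceeded 0.7. All pairs among the 18435 genes had a median of 0.00 (8.34% above 0.7), and all pairs among the genes with a mean level of at least 6 a median of 0.505 (29.3% above 0.7). Without CON 7 the members' median was 0.419 and that of the genes with a mean level of at least 6 was 0.224. In the 11 arrays without low correlation the medians were 0.378 and 0.0546. These are descriptions of shared arrays, with no test.

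Within the groups the members' median r was 0.855 in CON, 0.369 in CON without CON 7 and 0.541 in NOCON. For genes with a mean level of at least 6 these medians were 0.695, 0.260 and 0.286. Pairs from the same class had a median of 0.755 and pairs from different classes 0.727, or 0.428 and 0.366 in the 11 arrays without low correlation. After adjustment over the 820 pairs, 606 had a permutation p for r under 0.05, 274 one for Spearman's rho, and 241 one for r without CON 7. The last count comes from 15 arrays, and 5 of its pairs had a negative r. No such count was made for other genes, so nothing particular to the members is read from these counts.

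**Figure D5:**
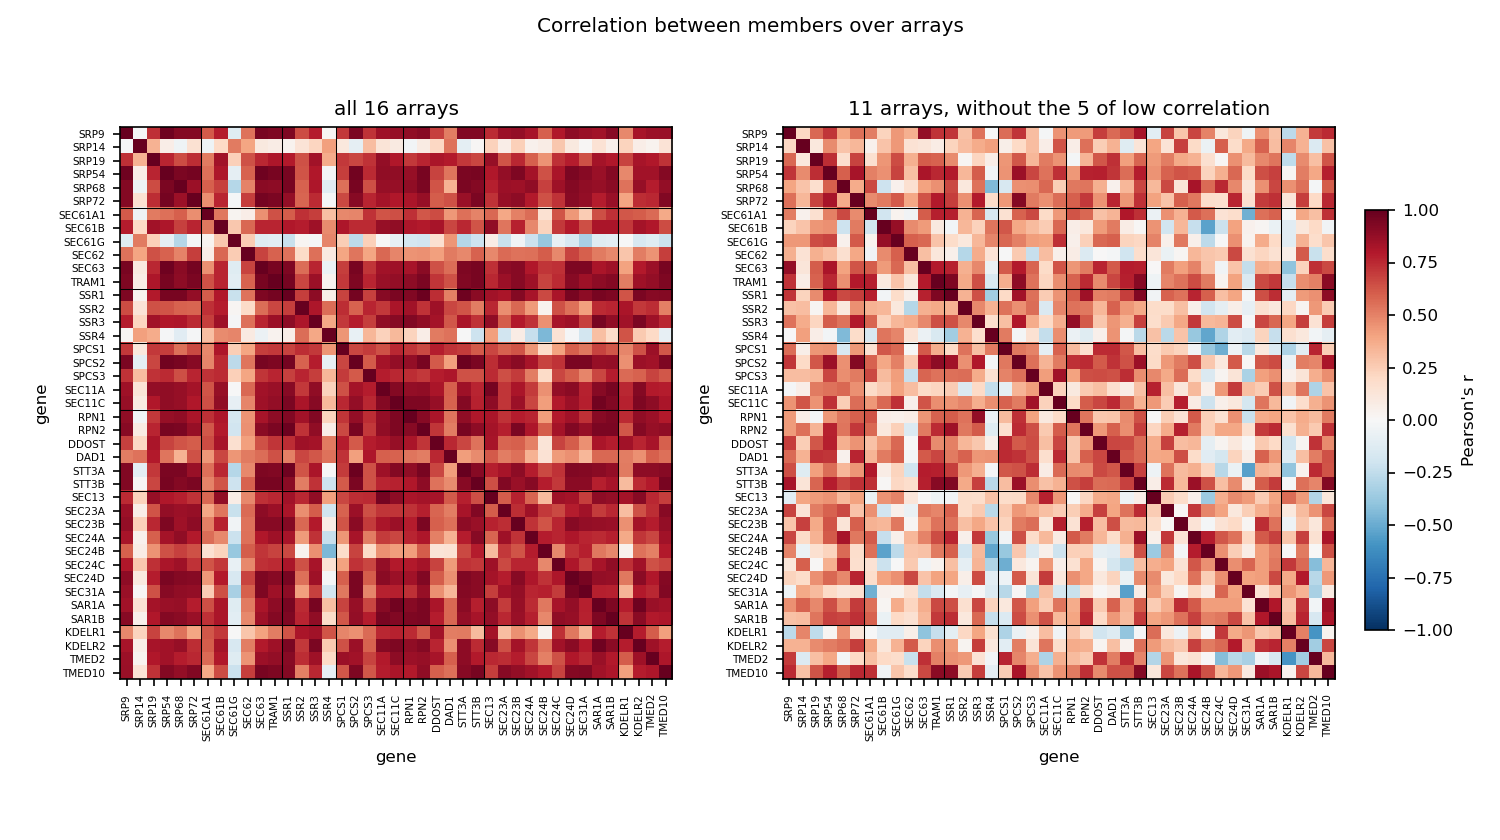
Pearson's r between members over arrays (red positive, blue negative, lines between classes), from all 16 arrays and from the 11 arrays without low correlation. With all arrays most cells are dark red apart from the rows of SRP14, SEC61G and SSR4, and the 11 arrays give a paler, still mostly red map.

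Of the 5 highest r, 4 joined members of different classes. SSR1 of TRAP and RPN2 of OST had r = 0.981 over 16 arrays (rho = 0.879, permutation p = 1e-05, the smallest the 100000 resamples can give, adjusted p = 0.000174), and r = 0.860 without CON 7 and NOCON 1, the arrays farthest from the median of SSR1. SPCS2 and STT3A had r = 0.978 (rho = 0.847, permutation p = 1e-05 for r, adjusted p = 0.000174), and 0.791 without the same arrays. SSR1 and STT3A followed at 0.976 (0.780 without them), SRP9 and SRP54 at 0.972 (0.870) and SAR1A and KDELR2 at 0.971 (0.545). In the 11 arrays without low correlation these pairs had r of 0.847, 0.637, 0.690, 0.711 and 0.733.

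The lowest r all involved SEC61G or SSR4, and none passed over 16 arrays. SEC61G had r = -0.376 with SEC24B, -0.326 with SEC31A, -0.287 with STT3A and -0.286 with SRP68 (adjusted permutation p from 0.177 to 0.329). SSR4 and SEC24B had r = -0.453 (rho = -0.576, permutation p = 0.079, adjusted p = 0.0977). Without CON 7 this pair was at r = -0.759 (permutation p = 0.00101, adjusted p = 0.00796), and in the 11 arrays without low correlation at -0.516. SEC61B and SEC61G, subunits of one channel, had r = 0.271 over all arrays, 0.661 without CON 7 and 0.872 in those 11 arrays. This pair was not chosen in advance, and it leaves out SEC61A1, so it does not describe the channel as a whole. In those 11 arrays the log2 difference CON minus NOCON was 0.10 for SEC61A1, -0.15 for SEC61B and -0.18 for SEC61G.

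Paralogs with overlapping roles were compared in 7 pairs. SAR1A and SAR1B had r = 0.933 (rho = 0.826, permutation p = 2e-05 for r, adjusted p = 0.000231), and r = 0.719 without CON 7 and NOCON 1. STT3A and STT3B had r = 0.908 (rho = 0.824, permutation p = 1e-05 for r, adjusted p = 0.000174), and r = 0.813 without those arrays. SEC24A and SEC24B had r = 0.787 (rho = 0.768, permutation p = 0.0002 for r, adjusted p = 0.00103), and r = 0.675 without them. In the 11 arrays without low correlation the 3 pairs were at 0.802, 0.686 and 0.785.

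The remaining pairs had r under 0.6 without CON 7. KDELR1 and KDELR2 had r = 0.783 (permutation p = 0.0322, adjusted p = 0.0444) but rho = 0.279, and without CON 7 their r was -0.00 (adjusted p = 0.998), so that the relation rests on that array, although it was 0.507 in the 11 arrays without low correlation. SEC23A and SEC23B went from 0.737 to 0.556 without CON 7 and to 0.00978 in those 11 arrays, and SEC11A and SEC11C from 0.915 to 0.593 and 0.233. SEC24C and SEC24D were at 0.809, 0.520 and 0.462. Array probes of paralogs can share target sequence, which was not assessed.

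Against the mean of the other members, SSR1 had the highest r of any member (0.982 over 16 arrays), followed by SRP54 (0.970). SRP54 kept 0.945 in the 11 arrays without low correlation, where SPCS2 had 0.903, TMED10 0.893 and STT3B 0.878. SEC61G (-0.10), SSR4 (0.12) and SRP14 (0.12) had the lowest r over 16 arrays. In the 11 arrays SEC61G was at 0.525, SRP14 at 0.410 and SSR4 at -0.00. KDELR1 went from 0.618 to -0.30 without CON 7.

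Outside the list, the genes whose values followed the mean of the members most closely over 16 arrays were TMCO1 (r = 0.9862), PSMD7 (r = 0.9862), UBE2K (r = 0.985), UBE2F (r = 0.984) and ERLEC1 (r = 0.984). In all, 691 of 18394 other genes (3.76%) had r above 0.9. In the 11 arrays without low correlation these 5 genes had r between 0.825 and 0.948, and without CON 7 UBE2J1 came first (r = 0.965). They were picked as the highest of all genes, so their r carries no test.

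Related genes outside the members were counted in 4 lists. Among 24 other genes of SRP, OST and membrane insertion, 21 had lower means in CON (median -0.23) and 3 (12.5%) had an unadjusted limma p under 0.05. Among genes with a mean level of at least 6 these shares were 80.0% and 9.51%, against 87.5% with lower means here. Without CON 7 the count was 19 of 24 and the median -0.13. The smallest p were those of GET4, part of the complex that hands tail-anchored proteins to the ER (-0.34, SE 0.11, adjusted p = 0.419), the OST subunit TMEM258 (-0.27, adjusted p = 0.5261) and the chaperone BAG6 (-0.26, adjusted p = 0.554). SRPRA, the alpha subunit of the SRP receptor, differed by -0.27 (SE 0.13, adjusted p = 0.583), or -0.15 without CON 7.

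Among 28 other COPII and cargo receptor genes, 24 had lower means in CON (median -0.14), or 17 of 28 without CON 7 (median -0.04). TMED9, another p24 protein, differed by -0.34 (SE 0.14, adjusted p = 0.538 with limma), or -0.21 without CON 7. YIF1A and ERGIC3, which act between ER and Golgi, both differed by -0.24 (adjusted p = 0.558 and 0.584). The list of COPI, the coat of vesicles returning to the ER, held coat subunits along with ARF1, ARF4, ARFGAP2 and ARFGAP3, which are not subunits of the coat. Of its 12 measured genes, 11 had lower means (median -0.15), or 6 of 12 without CON 7.

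COPE, a COPI subunit, had a mean of 8.24 ± 0.14 over the 8 CON arrays and of 8.67 ± 0.36 over the 8 NOCON arrays (SD). Its difference of -0.43 (SE 0.13, adjusted p = 0.409 with limma) was -0.40 without CON 7 and -0.21 without the 5 arrays of low correlation. ARF4, a GTPase of the Golgi, differed by -0.67 (SE 0.33, adjusted p = 0.579), and by -0.36 without CON 7. ARFGAP2 differed by -0.18 and ARF1 by -0.11, or by -0.20 and -0.02 without CON 7. Of 22 ER chaperone and stress response genes, 21 had lower means (median -0.20, or -0.06 without CON 7), with DDIT3 at -0.45, MANF at -0.59, CRELD2 at -0.28 and ATF4 at -0.05. Without CON 7 these were at -0.36, -0.38, -0.23 and 0.02. No gene of these 4 lists passed over all probe sets.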

How the data were processed

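Biopsy RNA of 16 heifers was hybridised as biotin-labelled cRNA to Affymetrix arrays, per the labels. The authors deposited log2 values per probe set, made with GCOS and RMA per the submitters' processing notes; the log base is read from values between 2.73 and 12.66. The genome build was not given in the sources used here, so no coordinates are given, and detection above background was not assessed. Gene symbols came from the array's platform annotation (1 symbol for 18790 probe sets, several for 385, none for 7598), updated through the RefSeq gene table of ARS-UCD2.0 for 21; 40 of the 41 measured members matched it by gene ID and SPCS3 kept the annotation's name. Levels of different probe sets are not comparable between genes.

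Differences are CON minus NOCON, from limma 3.58.1 in R 4.3.3 (lmFit and eBayes, no covariate), adjusted by Benjamini-Hochberg across the 26773 probe sets; this step was tested on simulated data. The exact test ran over all 12870 regroupings. Pairs of members were tested with 100000 permutations, two-sided, adjusted over 820 pairs. The p-values measure the spread between arrays, 1 per heifer. The members and lists were chosen with earlier results of these data known. Members given with their own values are, per class, that with the highest mean, the smallest p and the largest SD, besides those named after their values were seen (members with an unadjusted p under 0.05 or a higher mean in CON). Outside the members, the 5 genes most like their mean are named, and in each pathway list the 3 with the smallest p and the brightest. The number of arrays, 8 per group, limits the precision. A search for promoter motifs was not run.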

Additional observations from a re-analysis of the deposited data

Results flagged for a closer look

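Within a group of 8 arrays, single arrays stood apart from the rest for many members by Dixon's criterion (gap to the nearest array over the group's range above its critical value at 95%). Of the 82 groups of values, 37 met it. Chance gives about 1 in 20 for a single group, but these groups share the same arrays and are not independent. The criterion was not applied to other genes, so nothing particular to the members is read from this count. In CON, CON 7 was the lowest array in 24 of them. Its gap to the next CON array was largest for SRP54 (1.93), SSR1 (1.67), KDELR2 (1.53), STT3A (1.47), RPN2 (1.46) and SAR1A (1.45), on the log2 scale. Gaps between 1 and 1.4 were those of SEC11C (1.33), SPCS2 (1.30), SEC31A (1.24), SEC11A (1.19), SEC24D (1.16), SRP68 (1.13), TMED2 (1.07), KDELR1 (1.07), SRP9 (1.01) and SRP19 (1.003). Smaller gaps were those of SSR3 (0.99), TRAM1 (0.97), SAR1B (0.94), SEC13 (0.84), RPN1 (0.80), DDOST (0.76), SEC61B (0.51) and SSR2 (0.32).

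In NOCON, NOCON 1 was the lowest array in 11 groups of values, with gaps of 1.45 for SRP54, 1.03 for SPCS2, 0.92 for STT3A, 0.87 for SRP9, 0.86 for SEC31A, 0.75 for SEC63, 0.67 for SRP72, 0.61 for SEC24D, 0.58 for SSR1, 0.52 for TMED10 and 0.28 for KDELR2. The others were high arrays: SRP14 in CON 1 lay 0.22 above the next CON array, and SEC62 in NOCON 2 lay 0.28 above the next NOCON array.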

How the results depend on the processing

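No member passed an adjusted p of 0.05 under any alternative, nor at 0.10. The count of probe sets that passed was 16, and it was 67 with array weights, 44 with the first principal component as a covariate, 35 at 0.10, 0 with the exact test (2794 at an unadjusted exact p under 0.05) and 4 with the replicate number as a block. Leaving out 1 array gave 16 to 20. The labels do not say whether equal replicate numbers pair the heifers. Of the 8 pairs, 2 had a correlation of deviations above 0.1, and 1 array correlated best with its own number. These correlations cannot settle the pairing, because deviations of single arrays such as CON 7 also enter them. The block changed no call of a member. The count of members with a lower mean in CON was 21 with array weights, 20 with the first principal component and 20 without the 5 arrays of low correlation, and 21 to 39 with 1 array left out. Their median difference ran from -0.24 to -0.04 and the median pairwise r from 0.419 to 0.765 with 1 array left out, with 0.378 for the latter without the 5 arrays. The median difference was 0.0044 with the component, -0.034 with array weights, -0.073 with quantile normalization and 0.015 without the 5 arrays; the median of Spearman's rho was 0.487 and that of r with quantile normalization 0.492. Signs turned for SSR1 (0.049 with array weights, 0.12 with the component, 0.079 without the 5 arrays), SPCS2 (0.0021, 0.15, 0.016), STT3B (0.079, 0.16, 0.12; 0.018 with quantile normalization), SEC31A (0.0086, 0.14, 0.015), SAR1A (0.031, 0.073, 0.070) and TMED10 (0.037, 0.085, 0.078), and for SEC61A1 with median centring (-0.022). With 1 array left out SSR1 ran from -0.26 to 0.088, SPCS2 from -0.27 to 0.086, STT3B from -0.23 to 0.077, SEC31A from -0.35 to 0.044, SAR1A from -0.17 to 0.079, TMED10 from -0.25 to 0.023 and SEC61A1 from -0.039 to 0.069; apart from SEC61A1, the sign turned only without CON 7. Signs are listed here for the members given with their own values, and others, such as TRAM1, also turned without CON 7. The cause was not tested. Because each member has 1 probe set, averaging probe sets changed no member's value.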
